A study of Mus musculus with 55 samples.

Results

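The Ah receptor (Ahr), its dimer partner Arnt and 3 genes that the receptor activates in liver, Cyp1a1, Cyp1a2 and Tiparp, were followed across the livers of the Collaborative Cross (CC) mice. They were picked by gene symbol, and are 5 of the 37620 genes in the expression tables. RNA was sequenced from the livers of 55 male mice of 29 CC lines, which are inbred recombinant lines bred from the same founder strains. All mice were naïve and untreated, were housed at Tel-Aviv University on rodent chow under a light and dark cycle, and were between 8 and 11.9 weeks old with a body weight between 12.8 and 38 g. There were 8 lines with 1 mouse, 16 lines with 2 mice and 5 lines with 3 mice, and the groups compared are the lines. No AHR ligand was given and there was no control group, so the data hold the levels of untreated livers only.

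The Ah receptor is a ligand-activated transcription factor of the bHLH-PAS family that rests in the cytosol in a complex with HSP90 and p23 (Ptges3). On binding a ligand such as dioxin or a tryptophan derivative it enters the nucleus, pairs with ARNT and binds the xenobiotic response element (XRE). Cyp1a1 and Cyp1a2 are the classical targets and encode P450 enzymes that oxidize aromatic compounds, Cyp1a2 being abundant in untreated liver around the central vein, and Tiparp encodes a mono-ADP-ribosyltransferase that is induced by the receptor and inhibits it.

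The upstream sequences of the targets are shown because they were searched for the element through which the receptor acts. They are the 250 bases before the transcription start in RefSeq (GRCm38.p6), 5′ to 3′ on the strand of the gene. Of the 5 genes, 4 had an entry; Ahr had none. Capitals mark GCGTG, the XRE core, searched on both strands, so that CACGC is the same core on the opposite strand.
Cyp1a1, chr9:57697363-57697612, plus strand: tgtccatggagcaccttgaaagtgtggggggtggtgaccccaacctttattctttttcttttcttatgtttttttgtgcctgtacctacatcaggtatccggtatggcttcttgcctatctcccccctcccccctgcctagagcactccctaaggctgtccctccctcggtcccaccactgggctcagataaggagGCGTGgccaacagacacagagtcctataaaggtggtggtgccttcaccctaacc
Cyp1a2, chr9:57683656-57683905, minus strand: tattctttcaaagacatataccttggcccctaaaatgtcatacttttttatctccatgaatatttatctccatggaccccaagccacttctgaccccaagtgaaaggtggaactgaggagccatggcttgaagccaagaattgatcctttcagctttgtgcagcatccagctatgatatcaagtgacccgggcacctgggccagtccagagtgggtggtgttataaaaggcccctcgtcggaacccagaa
Tiparp, chr3:65528197-65528446, plus strand: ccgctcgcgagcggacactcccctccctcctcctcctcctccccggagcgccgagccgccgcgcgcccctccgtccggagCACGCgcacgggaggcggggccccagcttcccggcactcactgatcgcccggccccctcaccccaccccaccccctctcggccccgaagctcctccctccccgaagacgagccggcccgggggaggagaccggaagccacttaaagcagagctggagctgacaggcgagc
The core occurred once in Cyp1a1, at positions -54 to -50 from the start, and once on the opposite strand in Tiparp, at positions -170 to -166. No core was in the Cyp1a2 window. The core was also in the window of Arnt, the dimer partner and not one of the targets, at positions -29 to -25. Presence of the core thus did not set the targets apart. In windows that also include the first 50 bases after the start, 10639 of 32851 RefSeq promoters (32.4%) held the core, so a match is common and describes the letters only. Both Cyp1a genes held TATAAA, beginning at -30 in Cyp1a1 and -29 in Cyp1a2, as did 2733 of the 32851 promoters (8.32%) on the strand of the gene.

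Cyp1a1 and Cyp1a2 lie head to head on chromosome 9 (NCBI37), with Cyp1a1 at chr9:57545420-57551629 on the plus strand and Cyp1a2 at chr9:57524744-57531462 on the minus strand, 13957 bases apart. Their transcripts share a run of 137 identical coding bases in exon 2, shown because reads of 50 bases from it cannot be told apart. Capitals mark the identical run, at chr9:57548090-57548226 in Cyp1a1 and chr9:57530017-57530153 in Cyp1a2, with 20 bases on either side.
Cyp1a1 exon 2: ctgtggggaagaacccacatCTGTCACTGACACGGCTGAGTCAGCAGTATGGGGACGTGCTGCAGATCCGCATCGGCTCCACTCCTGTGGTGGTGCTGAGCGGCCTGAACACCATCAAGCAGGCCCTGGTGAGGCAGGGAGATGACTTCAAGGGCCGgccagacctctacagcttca
Cyp1a2 exon 2: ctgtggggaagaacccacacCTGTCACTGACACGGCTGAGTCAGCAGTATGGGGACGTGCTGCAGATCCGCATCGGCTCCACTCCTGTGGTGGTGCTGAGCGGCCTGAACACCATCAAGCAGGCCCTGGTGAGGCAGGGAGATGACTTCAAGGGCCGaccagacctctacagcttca
Of the 2570 windows of 50 bases in the Cyp1a1 transcript, 94 (3.66%) also occurred in that of Cyp1a2. In all 55 mice the estimated counts of the pair summed to a whole number within 0.015, while those of Cyp1a1 alone were more than 0.05 away from a whole number in 20 mice. Fragments were thus divided between the pair, and the Cyp1a1 level is uncertain to that extent.

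Between 20.5 and 34.0 M fragments were assigned to genes per mouse, with a median of 27.7 M. In 42 of 42 mice from the other lines with at least 2 mice, the mouse with the most similar expression profile belonged to the same line, whereas this held for 2 of the 5 mice of lines IL-1052 and IL-2750. The profiles of 3 of these 5 mice thus went against their labels, and results are given without both lines where they differ. Hepatocyte markers defined the tissue, with Alb at a mean of 31500 FPKM over the lines. Labels name no sequencing batch, and no source says whether mice of a line shared a litter, so p-values of tests among lines measure the spread between these mice. P-values of tests on line means measure the spread between lines.

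In these livers Cyp1a2 was by far the most abundant of the 5 genes and Cyp1a1 was barely expressed. On the FPKM scale, which is per length, the line means averaged 336 ± 87.7 for Cyp1a2, 5.80 ± 0.748 for Arnt, 5.25 ± 2.06 for Ahr, 3.09 ± 4.62 for Tiparp and 0.346 ± 0.128 for Cyp1a1 (SD, n = 29 lines). In every mouse the Cyp1a2 level exceeded that of Cyp1a1, by between 411 and 3771 times. The fragments behind a value ranged from 7866 to 31510 per mouse for Cyp1a2 and from 9.01 to 55.9 for Cyp1a1, so that the Cyp1a1 values carry a large counting error.

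**Figure D1:**
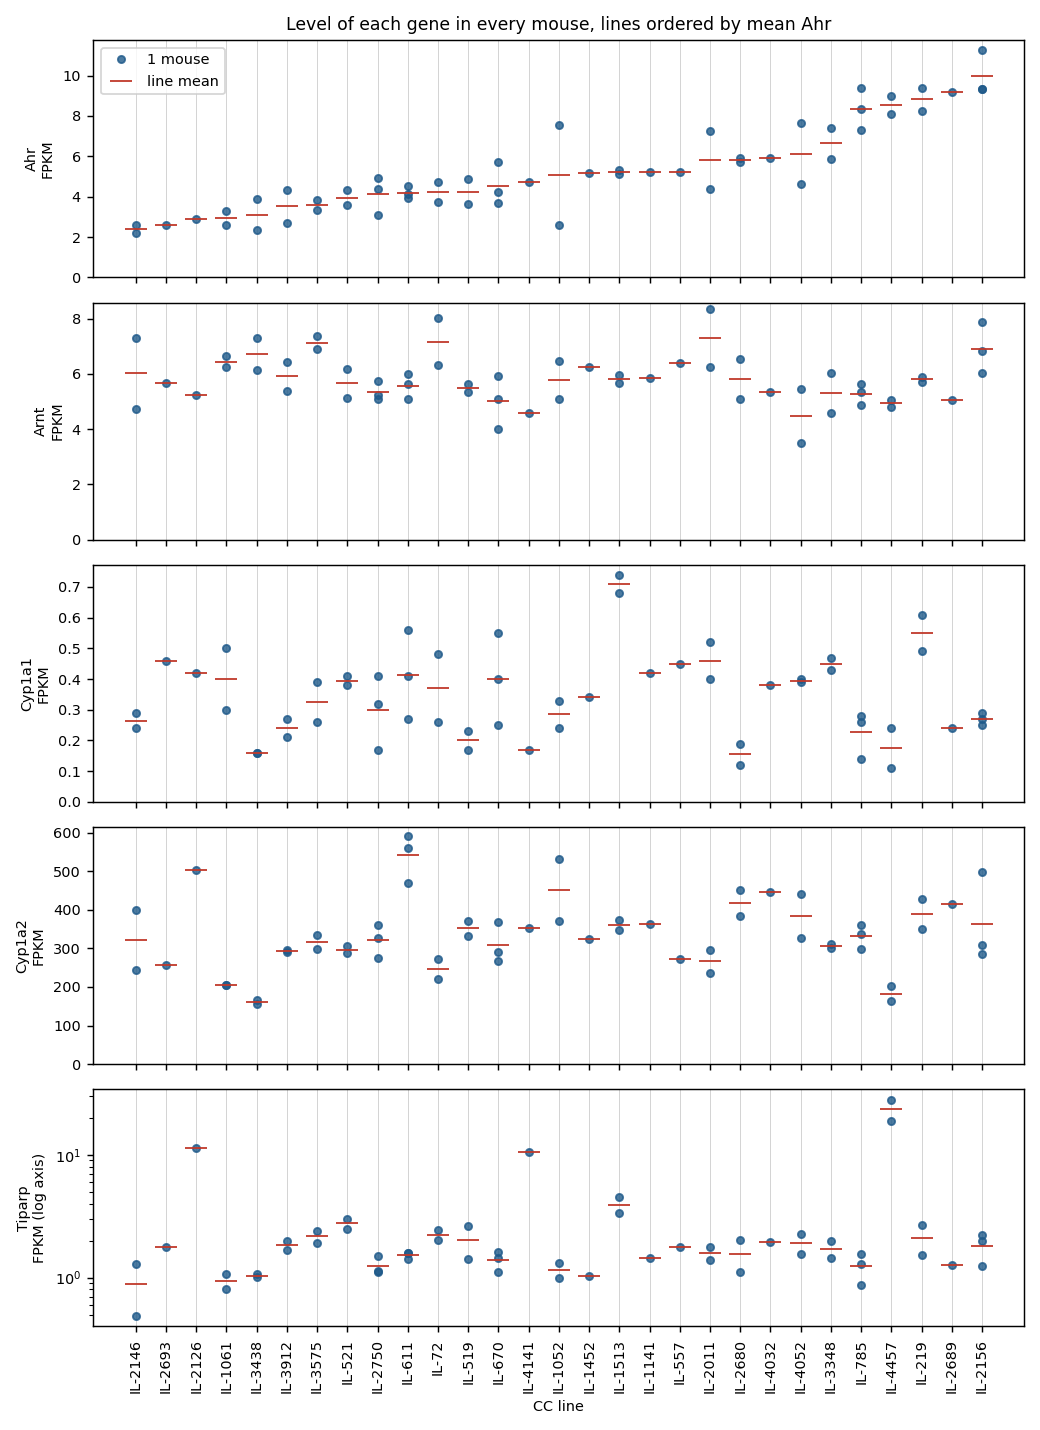
Level in FPKM (vertical axes, logarithmic for Tiparp) of each gene in each of the 55 mice (points) and the mean of each line (bars), with the 29 CC lines on the horizontal axis ordered by mean Ahr from 2.41 to 9.98 FPKM. Tiparp stands apart in IL-2126, IL-4141 and IL-4457.

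Total expression of all 5 genes differed among the 21 lines with at least 2 mice (47 mice, edgeR quasi-likelihood F test with Benjamini-Hochberg adjustment over all genes). The adjusted p was 6.96e-06 for Ahr, 0.0119 for Arnt, 0.00122 for Cyp1a1, 3.28e-06 for Cyp1a2 and 1.10e-12 for Tiparp. A difference among lines was the rule in these livers, since 13523 of 15285 genes tested (88.5%) passed, and the 5 calls are therefore no feature of the AHR genes. The intraclass correlation, the share of the variance of a trait that lies between lines, separated the genes further. The trait here was the rank of the binned FPKM turned into a normal score (van der Waerden), over all 55 mice of 29 lines. It was 0.66 for Ahr, 0.65 for Cyp1a2 and 0.57 for Tiparp, near the median of 0.59 over 5949 total-expression traits, with permutation p of 5.0e-05, 0.00011 and 0.00065 (1-sided). Without IL-1052 and IL-2750 that of Ahr was 0.77 (permutation p = 1.0e-05). The upper quartile of the traits, 0.69, is for all 29 lines and so is no like measure for this value. Over all 29 lines Ahr stood at percentile 67.8 of the traits. The intraclass correlation of Tiparp depended on the scale. It was 0.91 with log2(FPKM + 1), 0.87 with log2(FPKM + 0.1) and 0.87 with TMM-normalized log2 CPM. For Arnt it was 0.18 (permutation p = 0.190) and for Cyp1a1 0.27 (permutation p = 0.0920). Neither gene is among the 5949 traits, Arnt having 11 levels. The Arnt value was 0.05 with TPM (permutation p = 0.397) and 0.31 with TMM-normalized log2 CPM (permutation p = 0.0633). The Cyp1a1 value rests on 2 levels, because FPKM were binned in steps of 0.5, and without binning it was 0.55 (permutation p = 0.00140).

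Ahr, the receptor itself (chr12:36182646-36219710, minus strand), ranged 4.15-fold between line means. The lowest mean was 2.41 FPKM in IL-2146, whose mice had 2.19 and 2.62 FPKM, and the highest was 9.98 in IL-2156, whose 3 mice lay between 9.32 and 11.3 FPKM. Mice of these lines did not overlap. Over all mice the lowest, median and highest values were 2.19, 4.74 and 11.3 FPKM. Line means were spread almost evenly up to 6.64 FPKM in IL-3348, and 5 lines were higher, namely IL-785 (8.36), IL-4457 (8.54), IL-219 (8.83), IL-2689 (9.18, 1 mouse) and IL-2156. In the order of the 21 lines with at least 2 mice, all 20 pairs of neighbours overlapped, so no step in the order exceeded the spread. The mice of IL-1052 were far apart, at 2.60 and 7.56 FPKM, and neither mouse of this line had its nearest profile in the line.

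Arnt, the obligate partner of the receptor (chr3:95238310-95301162, plus strand), was the most even of the 5 genes. Its line means ran from 4.48 FPKM in IL-4052 to 7.29 in IL-2011, a ratio of 1.63, and the SD between lines (0.748) was no larger than the SD between mice of a line (0.842). Over all mice the lowest, median and highest values were 3.51, 5.71 and 8.34 FPKM. The mice of IL-4052 had 3.51 and 5.44 FPKM and those of IL-2011 6.24 and 8.34 FPKM. All 20 neighbouring pairs overlapped.

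Cyp1a2, which in liver oxidizes caffeine and aromatic amines, ranged 3.34-fold. The lowest line was IL-3438, with mice at 156 and 167 FPKM, followed by IL-4457 with 164 and 202 FPKM and IL-1061 with 205 and 206 FPKM. IL-611 was highest, with 3 mice between 470 and 592 FPKM and a mean of 541, and IL-2126 came next with 502 in 1 mouse. The 3 lowest lines and IL-611 did not overlap. In the order of the 21 lines, 18 of 20 neighbouring pairs overlapped, the exceptions being the steps from IL-4457 to IL-1061 and from IL-1061 to IL-72.

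Cyp1a1, the most strongly inducible of the P450 targets, stayed between 0.11 and 0.74 FPKM in all mice, with a median of 0.32. IL-1513 was highest with 0.68 and 0.74 FPKM, above both mice of the next line, IL-219, with 0.49 and 0.61 FPKM. The step between these lines was the one of 20 at which neighbours did not overlap. IL-2680 was lowest with 0.12 and 0.19 FPKM. With a maximum below 2 FPKM, Cyp1a1 is not among the total-expression traits.

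Tiparp (chr3:65332332-65359067, plus strand) had the widest range, 26.2-fold between line means, and 3 lines made up most of it. The mice of IL-4457 had 19.01 and 27.84 FPKM, the mouse of IL-2126 had 11.3 and that of IL-4141 had 10.5. The other 51 mice lay between 0.49 and 4.54 FPKM with a median of 1.56, and did not overlap the 4 high mice. IL-1513 was the next line, with 3.33 and 4.54 FPKM, and 17 of 20 neighbouring pairs overlapped. Without IL-4457 the difference among lines had an adjusted p of 0.000592 (edgeR), and without all 3 lines the intraclass correlation was 0.46 (permutation p = 0.00774). Since 2 of the 3 lines had 1 mouse each, a property of the line and of that mouse cannot be told apart there.

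The question whether the targets follow the receptor was addressed on the 29 line means of log2(FPKM + 1). No target level rose or fell with Ahr. Among the 10339 genes with a mean of at least 1 FPKM, 0 passed an adjusted p of 0.05 against Ahr (limma with Benjamini-Hochberg adjustment, 0% of genes), and 718 had an unadjusted p under 0.05. The slope on Ahr was 0.18 ± 0.16 for Cyp1a2 (SE, adjusted p = 0.854), 0.21 ± 0.34 for Tiparp (adjusted p = 0.931, limma) and -0.07 ± 0.07 for Arnt (adjusted p = 0.867), in log2 units per log2 unit of Ahr. Over the 21 lines with at least 2 mice the Tiparp slope was larger, at 0.67 ± 0.33 (adjusted p = 0.537, limma). Cyp1a1 lay below the minimum, and with no filter its slope was -0.01 ± 0.06 (adjusted p = 0.985). These errors leave room for a moderate slope of Cyp1a2 or Tiparp, more for a rise than for a fall. The absence of a relation is therefore not shown.

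Lines with high or low Ahr did not share a level of Cyp1a2. Of the 5 lines highest for Ahr, IL-4457 had the second lowest Cyp1a2 mean (183 FPKM), while IL-785, IL-2156, IL-219 and IL-2689 had 332, 364, 390 and 414 FPKM around or above the median line of 324 FPKM. Of the 3 lowest lines for Ahr, IL-2126 had 502 FPKM of Cyp1a2, IL-2146 had 322 and IL-2693 had 257. The line with the highest Cyp1a2, IL-611, had an Ahr mean of 4.20 FPKM, below the median line of 5.08. IL-1513, highest for Cyp1a1, had an Ahr mean of 5.21 FPKM.

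**Figure D2:**
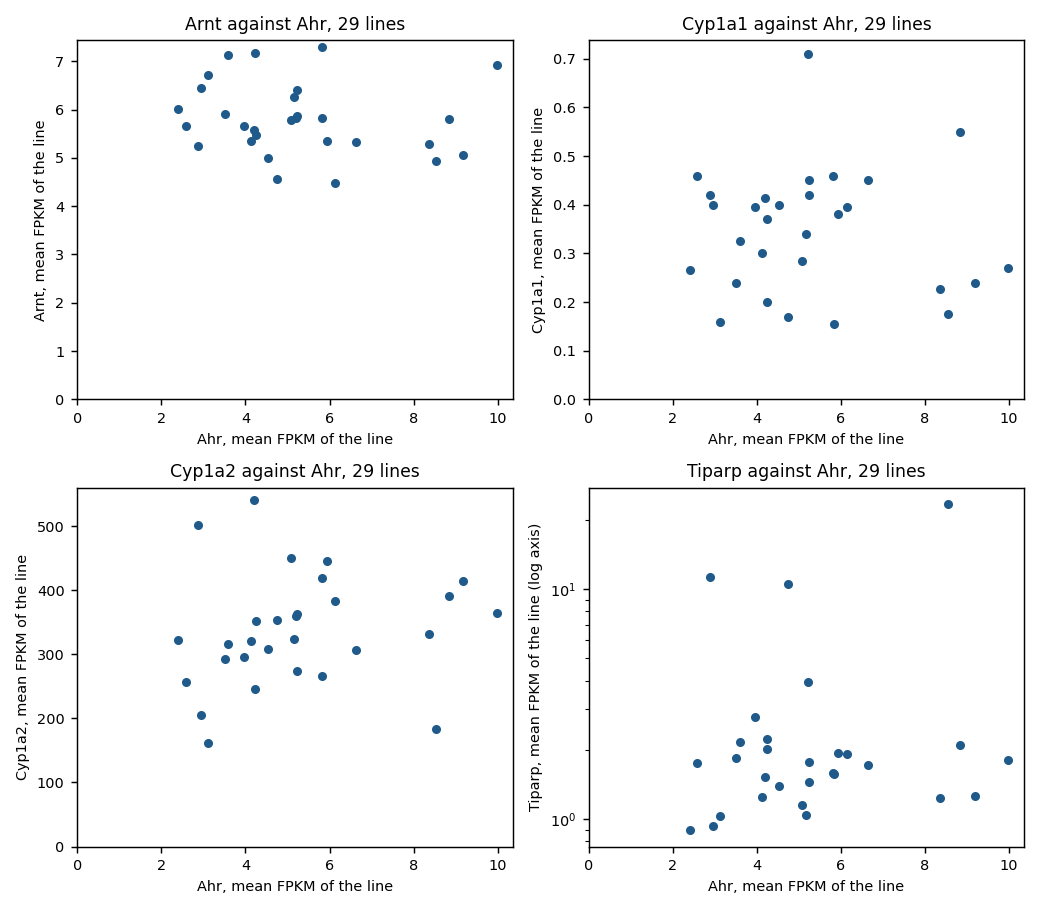
Mean FPKM of Arnt, Cyp1a1, Cyp1a2 and Tiparp (vertical axes, logarithmic for Tiparp) against mean FPKM of Ahr (horizontal axes), 1 point for each of the 29 lines. No pair passed its test, with Pearson r of -0.20 for Arnt, -0.05 for Cyp1a1 and 0.21 for Cyp1a2.

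In all, 10 pairs of the 5 genes were compared by correlation over line means, with 2-sided permutation tests. For Ahr and Cyp1a2, r was 0.21 (permutation p = 0.290) and rho 0.31 (permutation p = 0.0989) over 29 lines, and r was 0.20 without IL-2146 and IL-2156, the lines farthest from the median of Ahr. For Ahr and Cyp1a1, r was -0.05 (permutation p = 0.808) and rho -0.02 (permutation p = 0.931), and r was -0.05 without the same lines. Ahr and Arnt had r = -0.20 (permutation p = 0.302) and rho = -0.25 (permutation p = 0.197), and r was -0.33 without those lines. Arnt and Cyp1a2 had r = -0.34 (permutation p = 0.0681) and rho = -0.36 (permutation p = 0.0570), and r was -0.30 without IL-2011 and IL-4052. Arnt and Cyp1a1 had r = 0.13 (permutation p = 0.493) and rho = 0.12 (permutation p = 0.542), and r was 0.12 without those lines. The neighbours Cyp1a1 and Cyp1a2 had r = 0.18 (permutation p = 0.363) and rho = 0.01 (permutation p = 0.944), and r was 0.24 without IL-2680 and IL-1513.

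Pairs with Tiparp were compared over 26 lines, since IL-2126, IL-4141 and IL-4457 formed a separate group of their own. Ahr and Tiparp had r = 0.15 (permutation p = 0.454) and rho = 0.18 (permutation p = 0.375), and r was 0.03 without IL-2156 and IL-2146. Arnt and Tiparp had r = 0.003 (permutation p = 0.987) and rho = 0.02 (permutation p = 0.931), and r was 0.06 without IL-2011 and IL-4052. Cyp1a2 and Tiparp had r = 0.17 (permutation p = 0.391) and rho = 0.04 (permutation p = 0.828), and r was 0.08 without IL-611 and IL-3438. Cyp1a1 and Tiparp had r = 0.54 (permutation p = 0.00514), the one pair of 10 under 0.05, but rho was 0.33 (permutation p = 0.104). Without IL-2680 and IL-1513 r was 0.35 (permutation p = 0.0920), so the relation no longer passed. Over all 29 lines, with the 3 high Tiparp lines included, r was -0.09 (permutation p = 0.633). Within lines, the deviations of Ahr and Cyp1a2 from the line mean had r = 0.32 over 47 mice of 21 lines, given as a description. Over the 10 pairs the within-line r ran from -0.17 for Cyp1a2 and Tiparp to 0.44 for Arnt and Tiparp (45 mice of 20 lines), and it was -0.06 for Cyp1a1 and Tiparp.

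Bulk liver RNA mixes cell types, and a change in the number of cells of a type and in the RNA per cell cannot be told apart. Markers of Kupffer cells, sinusoidal endothelium and stellate cells were ordered with Ahr across line means, all 11 of 11 with a positive rho between 0.24 and 0.54. Highest was Dcn, a matrix proteoglycan of stellate cells, with rho 0.54 (adjusted p = 0.430 on Ahr, limma), and 0 of the 11 passed the test. With Cyp1a2 the same markers had rho between -0.15 and 0.40, positive in 6 of 11. With Tiparp they were positive in 10 of 11, up to 0.53, so the direction was not particular to Ahr. They were positive in 7 of 11 with Arnt and in 6 of 11 with Cyp1a1. Of 4 cholangiocyte markers, 2 had a positive rho with Ahr, with values between -0.31 and 0.16. The part of these cells in the Ahr level was not tested. Depth had a rho of -0.02 with Ahr, -0.18 with Arnt, -0.24 with Cyp1a1, -0.006 with Cyp1a2 and 0.07 with Tiparp. The rho farthest from 0 was -0.33 for body weight, with Cyp1a1, and 0.26 for age, with Cyp1a2. The part of depth, weight and age was not tested.

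The other genes of the pathway gave the same count against Ahr as all genes did, namely 0. Of 14 other AHR target genes, 10 were abundant enough for the regression and 0 rose or fell with Ahr, with a median slope of 0.01 against -0.01 over all genes. Nqo1, a quinone reductase, had a rho of 0.02 with Ahr, Ugt1a6a, a phenol glucuronosyltransferase, -0.08, and Cyp1b1, the extrahepatic P450 of the family, 0.40 at a mean of 0.125 FPKM. Ahrr, the repressor of the receptor, and Aldh3a1 averaged 0.0133 and 0.00667 FPKM. Among lines, 10 of the 12 tested targets differed (edgeR, adjusted p under 0.05), against 88.5% of all genes. Of the cytosolic partners of the receptor, Hsp90aa1, Hsp90ab1 and Ptges3 were examined and 0 of 3 moved with Ahr, with rho between 0.10 and 0.25.

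Markers of the zone around the central vein, where Cyp1a2 is expressed, had a positive rho with Cyp1a2 in 8 of 8 cases, between 0.06 and 0.57 over 29 lines with a median of 0.37. Periportal markers were positive in 4 of 6 cases with a median of 0.32 and up to 0.54, and clock genes in 7 of 7 with a median of 0.19, so the direction was not particular to the pericentral zone. None of these lists had a gene that passed the regression on Cyp1a2. Of the P450 electron donors, 2 of 3 had a positive rho with Cyp1a2, and again 0 passed.

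The 3 cytosolic partners of the receptor named above moved with Tiparp. Against Tiparp 2089 of 10339 genes passed (20.2%), 1019 higher and 1070 lower, and 371 did without the 3 high lines, 360 higher and 11 lower. Hsp90aa1, Hsp90ab1 and Ptges3, that is the 2 HSP90 chaperones and p23, rose with Tiparp with slopes of 0.95 ± 0.13, 0.54 ± 0.06 and 0.39 ± 0.06 (SE, adjusted p of 5.55e-06, 5.33e-07 and 4.27e-05, limma). The same 3 genes passed without the 3 high lines (adjusted p of 0.0249, 0.0433 and 0.0294). The lines next highest for Tiparp, IL-1513 and IL-521, were also high for the sum of these genes. Their mice had 810 and 975 FPKM and 749 and 748 FPKM, against a median of 365 over these 51 mice. IL-2680 replicate 1 had 752 FPKM at a Tiparp level of 2.02 FPKM. The part of these lines in the result was not tested. Hsp90aa1 was at 341 and 357 FPKM in the mice of IL-4457, 426 in IL-2126 and 245.1 in IL-4141, against a median of 61.7 and a highest value of 324 in the other 51 mice.

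A few cell type markers moved with Tiparp as well, against 20.2% of all genes. Of 4 markers of sinusoidal endothelium 1 passed, Lyve1, which rose (slope 0.47, adjusted p = 0.00422, limma). Of 8 pericentral genes 2 passed, Axin2 and Tbx3, which fell (-0.27 and -0.52, adjusted p of 0.00317 and 0.00260). However, 6 of the 8 had a positive rho with Tiparp, so the zone did not move as 1. Lyve1, Axin2 and Tbx3 did not pass without the 3 high lines, where the slopes of Axin2 and Tbx3 turned positive (0.14 and 0.31). There another pericentral gene, Lgr5, rose (slope 0.83, adjusted p = 0.00938, limma). The 4 cholangiocyte markers summed to between 3.17 and 10.2 FPKM in the 4 high mice and to between 0.50 and 8.47 in the others, with a median of 1.52. The part of these cells in the Tiparp level was not tested.

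Some immediate early genes, which respond within minutes to stress or handling, were also high there. Of 6 tested, Atf3, Egr1 and Junb rose with Tiparp (adjusted p of 1.05e-05, 0.00460 and 0.00121, limma), against 20.2% of all genes. Their slopes were 1.42, 1.47 and 0.93. Fos, Jun and Ier2 did not pass (adjusted p of 0.186, 0.344 and 0.189). Over the 21 lines with at least 2 mice Atf3 passed (adjusted p = 0.00279), but Egr1 and Junb did not (adjusted p of 0.117 and 0.108). Without the 3 high lines 0 passed, with adjusted p of 0.0877, 0.199 and 0.110 for Atf3, Egr1 and Junb. Their slopes were no smaller there, at 1.70, 2.37 and 1.61. The summed level of 8 immediate early genes was between 109 and 321 FPKM in the 4 high mice. It was between 12.3 and 579 in the others, with a median of 25.6, so the groups overlapped. Of the other AHR targets, 1 of 10, Ugt1a6b, fell with Tiparp (slope -0.34 ± 0.12, adjusted p = 0.0455), and 0 did without the 3 lines. Cyp1a2 was at 164 and 202 FPKM in IL-4457, 353 in IL-4141 and 502 in IL-2126, thus spanning nearly the whole range. The part of the immediate early response in the Tiparp level was not tested.

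**Figure D3:**
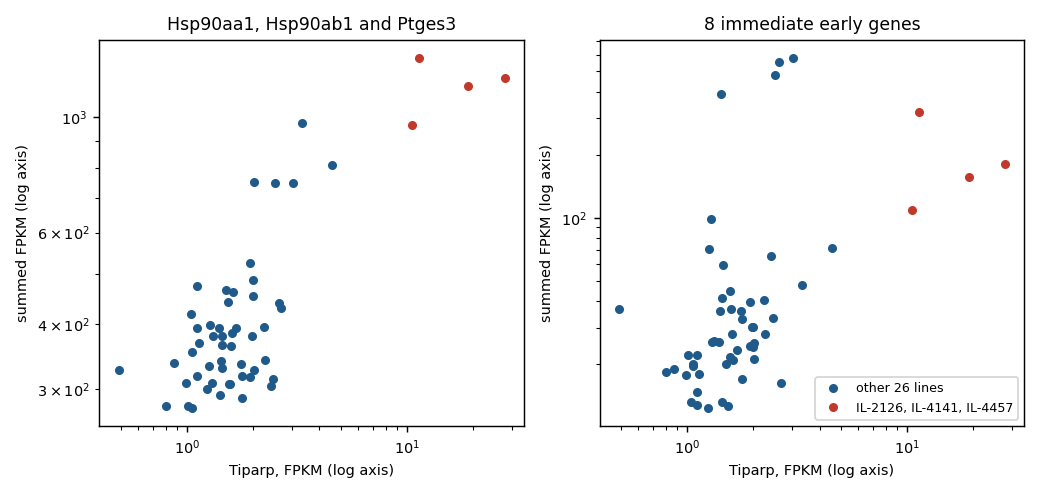
Summed FPKM of Hsp90aa1, Hsp90ab1 and Ptges3 (left) and of 8 immediate early genes (right) against Tiparp FPKM in each of the 55 mice, all axes logarithmic. The 4 mice of IL-2126, IL-4141 and IL-4457 reach 965 to 1299 FPKM for these partners, where the highest of the others is 975, whereas for the immediate early genes several other mice are higher.

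Against Arnt, 174 of 10339 genes passed (1.68%), 146 higher and 28 lower, and 6 did over the 21 lines with at least 2 mice. Within the lists these were Arntl, a clock gene and bHLH-PAS relative of Arnt (slope 3.55 ± 0.79, adjusted p = 0.0197), Per1, its clock antagonist (-3.64 ± 0.89, adjusted p = 0.0307), and Lyve1, an endothelial receptor (-2.69 ± 0.61, adjusted p = 0.0219, limma). Over the 21 lines none of these 3 passed, with slopes of 3.57, -3.69 and -3.06 (adjusted p of 0.0796, 0.0870 and 0.0865). Time of dissection was not given in the labels, and its part was not tested. Against Cyp1a2, 1 gene of 10339 passed (0.00967%), namely Gulo, the last enzyme of vitamin C synthesis (slope 0.63 ± 0.11, adjusted p = 0.0314), and against Cyp1a1 0 of 10340 (0%; 1066 at an unadjusted p under 0.05).

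Genes with the most similar order of line means are given as a description, over 29 lines and 10340 genes. For Ahr they were Atf6, a sensor of the endoplasmic reticulum (rho 0.66), Jam2 (0.63), Vcam1 (0.60), Sema6d (0.60) and Colec11 (0.60). For Cyp1a2 they included Gulo (rho 0.76), Ttc39b (0.67) and Nr1i3, the xenobiotic receptor CAR (0.61). For Tiparp they were Klf6 (rho 0.86), Ywhaz (0.78), Rhob (0.77), Zfp36l2 (0.76) and Smndc1 (0.74). For Arnt they were Zfp810 (rho 0.78), Spsb3 (0.76), Zfp513 (0.76), Lnx2 (0.74) and Stat2 (0.74), and for Cyp1a1 Peli1 (rho 0.72), Btbd3 (0.70), Gm6206 (0.68), Zmat1 (0.67) and Rassf5 (0.65).

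Isoform ratios varied little for the receptor and its targets and more for Arnt. Cyp1a1 and Cyp1a2 have 1 annotated isoform each. The main Ahr isoform ENSMUST00000116436 made up between 95.6% and 100% of the gene in every mouse. The main Tiparp isoform ENSMUST00000047906 made up between 86.1% and 100%, with 2 others, ENSMUST00000130705 and ENSMUST00000154094, reaching 13.6% and 13.9% at the most. For Arnt the main isoform ENSMUST00000090804 held 77.5% ± 6.70 of the expression (SD, n = 29 lines), from 62.4% in IL-1452 to 94.8% in IL-2126, both lines of 1 mouse.

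The minor Arnt isoforms ENSMUST00000102749 and ENSMUST00000107161 differ from it in short coding stretches, which are shown because they set the isoforms apart. ENSMUST00000102749 holds an additional coding exon at chr3:95270715-95270759 (NCBI37, plus strand) and ends earlier in the last exon. ENSMUST00000107161 lacks the first 3 and the last 45 bases of exon 19, at chr3:95297620-95297782, and these are in capitals.
Additional exon: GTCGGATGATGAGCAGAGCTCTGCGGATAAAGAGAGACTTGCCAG
Exon 19: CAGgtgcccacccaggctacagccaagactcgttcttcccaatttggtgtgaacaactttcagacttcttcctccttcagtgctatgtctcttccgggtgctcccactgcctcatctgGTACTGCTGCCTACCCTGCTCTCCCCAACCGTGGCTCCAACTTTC
ENSMUST00000102749 held 11.8% ± 5.61 over the 29 lines, from 1.81% in IL-557 to 23.5% in IL-785, whose 3 mice lay between 19.9% and 27.0%. The mice of IL-2011 had 0.46% and 4.29% and did not overlap those of IL-785. ENSMUST00000107161 held 5.64% ± 4.29 and was at 0 in 16 of 55 mice. ENSMUST00000136413 reached 6.06% in 1 mouse and was at 0 in 52.

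**Figure D4:**
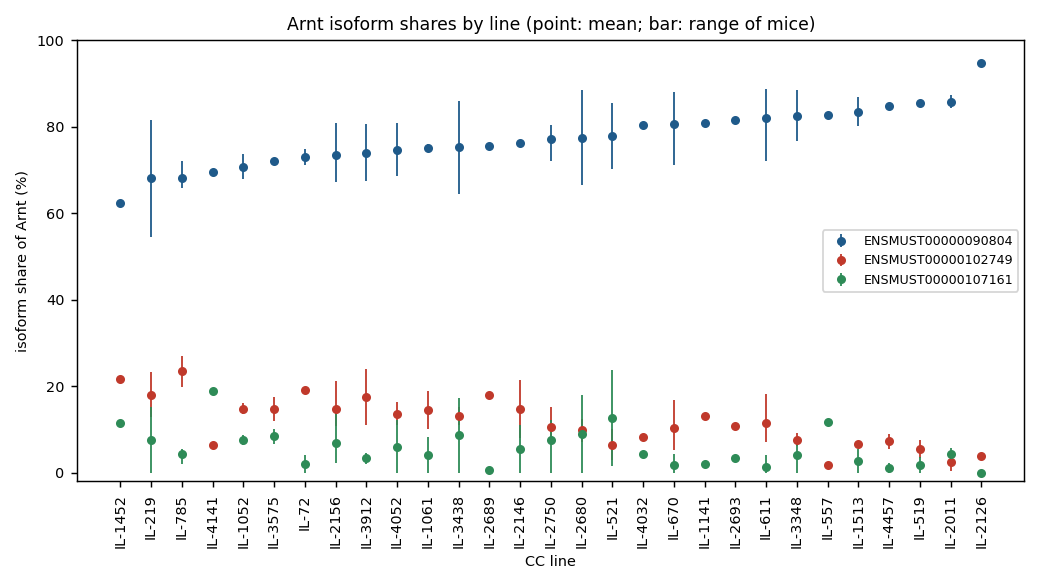
Share of Arnt expression (%, vertical axis) held by 3 isoforms in each of the 29 lines, ordered by the main isoform, with points for line means and bars from the lowest to the highest mouse. The share of ENSMUST00000102749 falls from 21.7% in IL-1452 to 3.77% in IL-2126 as that of the main isoform increases, and bars are wide.

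The isoform-ratio trait of Arnt, that of the main isoform, did not pass among lines (adjusted p = 0.399, limma on van der Waerden scores), nor did that of Tiparp (adjusted p = 0.729), while 2191 of 6650 traits did (32.9%). Its intraclass correlation was 0.02, against 0.48 for ENSMUST00000102749 and -0.37 for ENSMUST00000107161, given as descriptions. Between 418 and 914 fragments per mouse stand behind the Arnt ratios, so that shares of a few percent rest on few fragments. The shares sum to the whole and therefore move against each other.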

How the data were processed

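Livers of 55 mice were assigned to 29 lines by their labels. Read pairs (50 bases per end) were mapped by the authors with Bowtie 2 to NCBI37/mm9 with Ensembl annotation, and RSEM gave the levels, version 1.2.18 per the submitters' processing notes. The deposited expected counts are estimated fragments per gene, with ambiguous fragments shared out. The deposited TPM and FPKM were scaled for effective length and depth. Isoform ratios were deposited as percent of the gene.

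Expected counts were rounded and tested among the 21 lines with at least 2 mice with edgeR 4.0.16 (quasi-likelihood F test, R 4.3.3), isoform ratios with limma 3.58.1 on van der Waerden scores, and line means of log2(FPKM + 1) by limma regression on each gene over genes with a mean of at least 1 FPKM. The pseudocount of 1 understates changes of low genes, and slopes are on that scale. Traits followed the rule of the study: a maximum of at least 2 FPKM, rounding to 200 bins of the maximum (never finer than 0.5), and 12 levels or more. For isoform ratios this gave 6650 traits, more than the study counted, so that set differs from the set of the study. Intraclass correlations were taken on van der Waerden scores of the rounded FPKM over all 55 mice. Their tests and those of the correlations used 100000 permutations (Python 3.11.15). On simulated data, edgeR recovered 195 of 200 changed genes with 3 false calls among 14409 genes. Far fewer genes changed there than the 88.5% called among lines, so the simulation does not gauge that count.

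Named were all 5 genes with isoforms reaching 5% in a mouse, list genes that passed a test or define a role, and the 5 genes of highest rho for each. Members and lists were chosen with earlier results of these data known. Pairs with Tiparp were planned over 29 lines and are given over 26, a choice made after seeing the data. Positions and isoform structures come from an Ensembl annotation of the same build, in which 20 of 20 isoforms had the length given in the files. Some genes of the lists and of highest rho are not reported here, and counts for the cytosolic partners cover the named genes only. Protein sequences were not used here. Alternatives were another normalization (DESeq2 1.42.0 among them), pseudocount, filter and unit, and leaving out lines or mice.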

Additional observations from a re-analysis of the deposited data

How the results depend on the processing

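The calls of all 5 genes among lines held under each alternative run, with 12911 to 13589 genes called. Leaving out 1 mouse at a time (24 of 47 mice for edgeR) gave 12744 to 13635 genes, and 1833 to 2351 isoform-ratio traits. With 1 mouse left out, the intraclass correlation was 0.62 to 0.75 for Ahr, 0.13 to 0.32 for Arnt, 0.22 to 0.35 for Cyp1a1, 0.61 to 0.72 for Cyp1a2 and 0.54 to 0.65 for Tiparp. That of Cyp1a1 passed 0.05 on other scales: 0.58 with log2(FPKM + 1), 0.56 with log2(FPKM + 0.1), 0.37 with TPM, 0.52 with TMM log2 CPM, 0.40 without IL-1052 and IL-2750, and 0.55 without rounding, the last chosen after seeing the data.

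Correlations near 0 changed sign. Ahr and Cyp1a1 had r = 0.087 over lines with at least 2 mice, and Arnt and Cyp1a1 r = -0.045 with TMM log2 CPM. Arnt and Tiparp had r = -0.0064 with log2(FPKM + 0.1), -0.205 with TMM log2 CPM, -0.028 without IL-1052 and IL-2750 and, added after seeing the data, -0.389 over all 29 lines, where Cyp1a1 and Tiparp had -0.092 and Cyp1a2 and Tiparp -0.054. With 1 mouse left out, r was -0.29 to -0.09 for Ahr and Arnt, -0.086 to 0.0077 for Ahr and Cyp1a1, 0.15 to 0.31 for Ahr and Cyp1a2, 0.09 to 0.23 for Ahr and Tiparp, 0.04 to 0.20 for Arnt and Cyp1a1, -0.38 to -0.28 for Arnt and Cyp1a2, -0.048 to 0.18 for Arnt and Tiparp, 0.13 to 0.23 for Cyp1a1 and Cyp1a2, 0.46 to 0.60 for Cyp1a1 and Tiparp, and 0.08 to 0.21 for Cyp1a2 and Tiparp. The p for Arnt and Cyp1a2 passed 0.05 in 6 of 55 of these.

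Against Ahr, 2 genes passed with no filter, among them Pde10a at a mean of 0.0553 FPKM, named after its values were seen. Against Arnt, 101 passed without IL-1052 and IL-2750 and 6 over lines with at least 2 mice. Against Cyp1a2, 0 passed with no filter (1080 at an unadjusted p under 0.05) and 0 over lines with at least 2 mice (386 likewise). Against Tiparp, 860 passed over lines with at least 2 mice and 371 without IL-2126, IL-4141 and IL-4457, added after seeing the data. The causes were not tested. Counting error limits Cyp1a1 and the minor Arnt isoforms.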
